A study of Sus scrofa and Rattus norvegicus with 8 samples.

Results

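Peroxisomal beta-oxidation was examined in subcutaneous fat of the pig through 8 genes that had been listed by role: the thiolases ACAA1 and SCP2, the acyl-CoA oxidase ACOX3, the bifunctional enzymes EHHADH and HSD17B4, the transporters ABCD2 and ABCD3, and the peroxin PEX11A. They were found by symbol among the 25880 gene IDs of the pig table, of which 14857 had a symbol, and 7 of the 8 had a value. SCP2 had no ID in the name table and so no value. The samples were the upper layer of backfat of 6 adult female Bama pigs, each 2 years old, with 1 rRNA-depleted stranded RNA-seq library per animal and no treatment. All 6 libraries form 1 group, termed pigs 1 to 6 by their replicate numbers. The series also holds 2 libraries of pooled rat inguinal fat, whose gene IDs could not be paired with symbols and which are not used here.

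Peroxisomes shorten very long-chain and branched fatty acids that mitochondria handle poorly. ABCD transporters bring the acyl-CoA esters into the organelle, an acyl-CoA oxidase makes the first double bond and releases hydrogen peroxide, a bifunctional enzyme adds water and oxidises the product, and a thiolase cleaves off acetyl-CoA. Catalase removes the peroxide, and the shortened chains can leave for the mitochondrion. PEX11 proteins elongate and divide the organelle, and in adipocytes peroxisomes lie close to lipid droplets.

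Enzymes reach the peroxisome by short targeting signals. The genes were listed for peroxisomal roles, so finding such signals among them is no independent evidence. The sequences are coding stretches of 30 bases from the Sscrofa11.1 genome with RefSeq gene models, each inside 1 exon, written 5′ to 3′ on the strand of the gene. In the first 5 lines the capitals mark the last 3 codons before the stop codon, where a type 1 signal lies.
EHHADH, chr13:123105940-123105969, minus strand: ttggcaggaccccccagcAGTAAGTTGtga
HSD17B4, chr2:123400665-123400694, plus strand: atgattcttaaagactatGCCAAGATTtga
ACOX3, chr8:2755581-2755610, plus strand: gtcataggcggtctgaaaTCCAACCTGtag
SCP2, chr6:159191045-159191074, minus strand: cagcttcagcccagcaaaGCTAAGCTGtga
ACAA1, chr13:22965162-22965191, minus strand: gctgcggtcttcgaatacCCTGGAAACtga
ACAA1, chr13:22975248-22975277, minus strand: tggAGGCTGCAGGTTGTGCTGGGCCACTTG
In the last line the capitals mark the codons of a type 2 signal, which lies near the start of a protein and begins at residue 3 of ACAA1. The type 1 pattern searched was a serine, alanine or cysteine codon, then lysine, arginine or histidine, then leucine or methionine, at the end of the longest coding sequence of each gene. It fitted 2 of the 8 genes, EHHADH and SCP2, and 98 of 19563 coding genes (0.501%). The middle codon of ACOX3 and the last codon of HSD17B4 fell outside the pattern. The type 2 pattern was searched in the first 40 residues. It was an arginine or lysine, a leucine, valine, isoleucine or glutamine, any 5 residues, a histidine or glutamine, and a leucine, alanine or phenylalanine. It was found in ACAA1 and in 1.14% of coding genes. The transporters ABCD2 and ABCD3 and the peroxin PEX11A, which are membrane proteins sorted by other means, fitted neither pattern.

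The loci lie on different chromosomes save for a pair on chromosome 13. ACAA1 (ENSSSCG00000011250) spans 22964844 to 23020138 of chromosome 13 on the minus strand, and EHHADH (ENSSSCG00000040296) spans 123104085 to 123162119 on the same strand. HSD17B4 (ENSSSCG00000028431) lies on chromosome 2 at 123313445 to 123401386, ABCD3 (ENSSSCG00000028620) on chromosome 4 at 122847925 to 122929454, ABCD2 (ENSSSCG00000000781) on chromosome 5 at 71123187 to 71180758, PEX11A (ENSSSCG00000027052) on chromosome 7 at 55256239 to 55264253 and ACOX3 (ENSSSCG00000008724) on chromosome 8 at 2716913 to 2756221. The loci of ACAA1 and PEX11A overlap other RefSeq genes on the opposite strand. The ACAA1 span holds MYD88 and shares 128 bases with DLEC1, and PEX11A shares 14 bases with WDR93 and 173 bases with a long noncoding RNA. These are overlaps of whole gene spans, introns included, and shared exons were not checked. The libraries were stranded, but the sources used here do not state whether the quantification used strand. Reads of any shared exon could therefore count for either gene.

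Expression was given in TPM, a measure of transcript abundance that corrects for transcript length and sets every library to the same total of 1000000. The files keep no read numbers, so the depth is unknown and the error of each value is the spread between pigs. Pigs 4 and 5 stood apart in composition. Named nuclear genes held 3.34% and 4.73% of their TPM, against 24.1% to 26.3% in the other 4 libraries. Mitochondrially encoded genes held 0.209% and 0.298%, against 10.8% to 21.2%. Over 0.1 TPM were 12735 and 13294 gene IDs, against 16733 to 17089. Whether this reflects the animals or the libraries was not tested, so extremes of pigs 4 and 5 may belong to either. As deposited, 76.4% of named nuclear genes were lowest in pig 4, and so were all 7 peroxisomal genes with a value. Each library was therefore also rescaled so that its 14844 named nuclear genes sum to 1000000, which gives the values called rescaled TPM. A ratio of 2 genes within a library is the same on both scales.

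Transcripts of the pathway were present in every animal. All 7 genes exceeded 0.1 TPM in all 6 pigs, as did 67.2% of the named nuclear genes. At over 1 TPM, 5 of the 7 passed in all 6 pigs, as did 30.9% of the named nuclear genes. The exceptions were ACOX3 and PEX11A, which were under 1 TPM only in pigs 4 or 5. The median of the 7 means was 10.2 TPM as deposited, against 3.30 TPM over all named nuclear genes. After rescaling it was 57.4 against 16.7 rescaled TPM, and the median member lay at the 77.4th percentile of named nuclear genes. In bulk tissue, fewer cells of a type and less RNA per cell cannot be told apart.

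**Figure D1:**
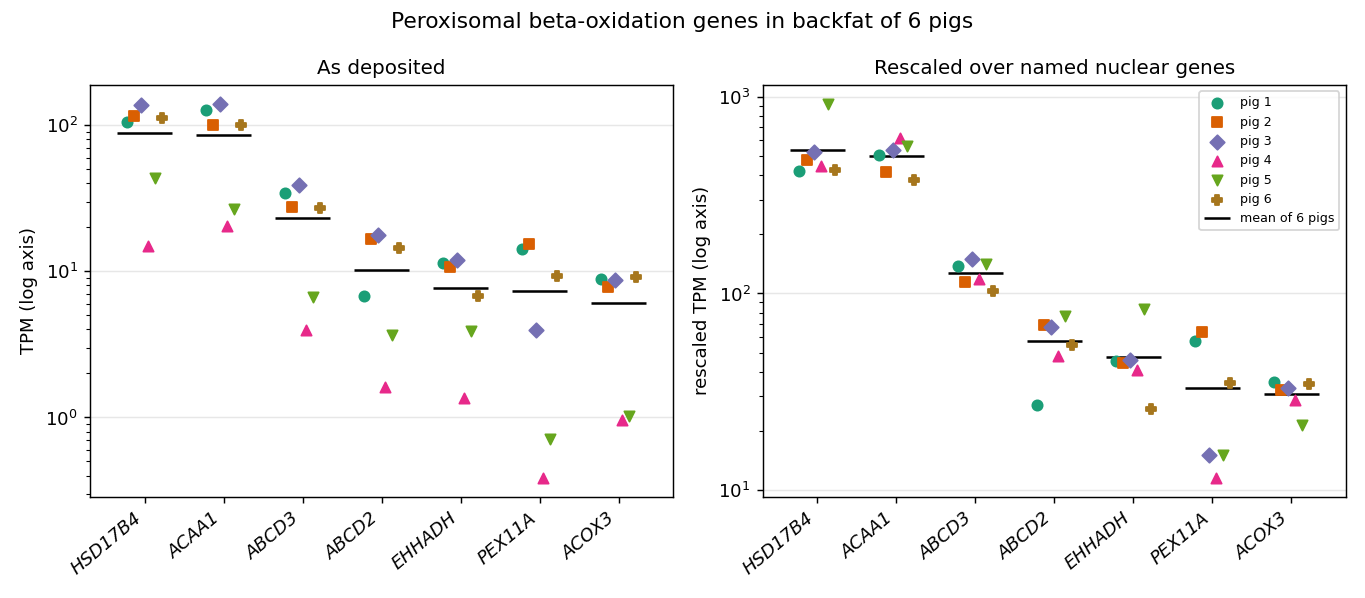
TPM as deposited (left) and rescaled TPM (right) of the 7 genes with a value, both on log axes, with 1 point per pig and a line at the mean of 6 pigs. Pigs 4 and 5 lie lowest for all 7 genes on the left, while on the right HSD17B4 and ACAA1 stand at the top with means of 535 and 502 rescaled TPM and PEX11A has the largest CV, 0.697.

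The levels fell into 3 tiers. HSD17B4 and ACAA1 formed the upper tier, at the 98.5th and 98.3rd percentiles of named nuclear genes. ABCD3 stood alone below them at the 90.2nd percentile. ABCD2, EHHADH, PEX11A and ACOX3 formed the lower tier, between the 63.6th and 77.4th percentiles. Of the 21 pairs of genes, 14 kept the same order in all 6 pigs, and these 14 are the pairs across tiers. The 7 pairs within a tier changed order between pigs. The highest mean was 17.3 times the lowest after rescaling and 14.4 times as deposited.

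ACAA1, the peroxisomal thiolase that releases acetyl-CoA in the last step of each cycle, was among the most abundant. It had 126, 100.3 and 140.2 TPM in pigs 1 to 3, 20.5 TPM in pig 4, 26.6 TPM in pig 5 and 99.5 TPM in pig 6. After rescaling these were 506, 416, 536, 614, 562 and 378. As deposited pigs 4 and 5 were lowest by a wide margin, and after rescaling the same pigs were the highest of the 6. The mean was 85.6 ± 50.6 TPM (SD, n = 6), or 502 ± 89.6 rescaled TPM (SD, n = 6), and 459 ± 74.2 rescaled TPM (SD, n = 4) without pigs 4 and 5. The highest pig had 1.63 times the rescaled level of the lowest.

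HSD17B4, the bifunctional enzyme needed for very long-chain and branched substrates, was at the level of ACAA1. It had 420, 475, 521, 446, 921 and 424 rescaled TPM in pigs 1 to 6, and 105, 115, 136, 14.9, 43.6 and 112 TPM as deposited. Pig 5 was far above the others after rescaling, and the other 5 pigs lay within 420 to 521. The mean was 535 ± 193 rescaled TPM (SD, n = 6), and 460 ± 47.9 (SD, n = 4) without pigs 4 and 5. HSD17B4 was above ACAA1 in 3 of 6 pigs, with a mean log2 ratio of 0.05 ± 0.41 (SD, n = 6), so this pair did not differ beyond its spread.

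EHHADH, the other bifunctional enzyme, which is induced by PPAR alpha in liver and acts on dicarboxylic and medium-chain substrates, was far lower. It had 45.3, 44.3, 45.7, 40.8, 83.1 and 25.9 rescaled TPM in pigs 1 to 6. Pigs 1 to 4 were close together, pig 5 was highest and pig 6 lowest. Its mean was 7.68 ± 4.37 TPM (SD, n = 6) as deposited and 47.5 ± 19.0 rescaled TPM (SD, n = 6), or 40.3 ± 9.64 (SD, n = 4) without pigs 4 and 5. HSD17B4 exceeded EHHADH in 6 of 6 pigs, by 9.27 to 16.4 times and by 11.5 times on average, with an SD of 0.27 on the log2 scale.

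Markers of hepatocytes shared some extreme pigs with EHHADH and HSD17B4 but did not follow them over all 6. Of 12 listed, 11 had a value and 8 were over 0.1 TPM in all pigs. Their summed level was 336, 1368, 622, 1550, 1801 and 215 rescaled TPM in pigs 1 to 6, highest in pig 5, as were both genes, and lowest in pig 6, as was EHHADH, while HSD17B4 was lowest in pig 1. Of the 11 markers 5 were highest in pig 5 and 8 were lowest in pig 6. ALB, the largest part of the sum on average, had 1091 rescaled TPM in pig 5 and 47.6 in pig 6. FGB had 335 in pig 4 and 203 in pig 5, and FGG, APOA2 and CYP2E1 were also highest in pig 4, while APOH and TTR were highest in pig 2. SERPINA1 was listed at 0 in all pigs but pig 5, and APOA2 was listed at 0 in pig 6. Pigs 2 and 4 also had high marker sums while their EHHADH was 44.3 and 40.8 rescaled TPM. The part of these transcripts in the EHHADH and HSD17B4 values was not tested.

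ACOX3, an oxidase for branched acyl-CoA esters, was the lowest of the 7 by its mean. It had 35.4, 32.4, 33.2, 28.7, 21.5 and 34.6 rescaled TPM in pigs 1 to 6. Pig 5 was lowest on this scale, but after quantile normalization and with a median-of-ratios factor per library pig 2 was lowest and pig 4 highest. Its mean was 31.0 ± 5.19 rescaled TPM (SD, n = 6) and 6.07 ± 3.96 TPM (SD, n = 6) as deposited. Without pigs 4 and 5 it was 33.9 ± 1.33 rescaled TPM (SD, n = 4), a CV (SD divided by the mean) of 0.0392 over the 4 pigs.

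The transporters differed from each other. ABCD3, the most common ABC protein of the peroxisomal membrane and a carrier of branched and dicarboxylic substrates, had 138, 115, 149, 118, 141 and 103 rescaled TPM in pigs 1 to 6. Its mean was 127 ± 17.9 rescaled TPM (SD, n = 6) and 23.2 ± 14.5 TPM (SD, n = 6) as deposited. Its CV was 0.141 after rescaling, below the 0.167 of ACOX3, but the order of these CVs depended on the scaling. The CV of ABCD3 was 0.193 without the top 1% of genes, 0.199 after quantile normalization and 0.283 with a median-of-ratios factor per library, against 0.106, 0.0911 and 0.105 for ACOX3. ABCD2, a carrier of very long-chain and polyunsaturated esters that is typical of adipose tissue, had 27.1, 69.1, 67.7, 48.1, 77.1 and 55.0 rescaled TPM. Pig 1 was the lowest here, although it was above the median for ABCD3. Its mean was 57.4 ± 18.1 rescaled TPM (SD, n = 6) and 10.2 ± 7.003 TPM (SD, n = 6) as deposited. ABCD3 was above ABCD2 in 6 of 6 pigs, by 1.66 to 5.07 times.

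PEX11A, the inducible member of the PEX11 division factors, varied widely. It had 57.1 and 64.0 rescaled TPM in pigs 1 and 2, 15.1, 11.6 and 15.1 in pigs 3 to 5, and 35.1 in pig 6. The values thus ran from 3 low pigs through pig 6 to 2 high pigs. As deposited they were 14.3, 15.4, 3.95, 0.386, 0.716 and 9.24 TPM, and the highest was 39.9 times the lowest. After rescaling the highest was 5.53 times the lowest, and 4.24 times without pigs 4 and 5. Its mean was 33.0 ± 23.0 rescaled TPM (SD, n = 6) and 7.33 ± 6.64 TPM (SD, n = 6) as deposited, and its CV of 0.697 was the highest of the 7 on the rescaled scale. With a median-of-ratios factor per library its CV was 0.569, below 0.604 for EHHADH and 0.578 for HSD17B4. PEX11G, a constitutive relative, had a mean of 6.72 ± 2.96 rescaled TPM (SD, n = 6).

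PPARG was high in the pigs with high PEX11A, and kidney tubule markers were high in only part of them. All 8 kidney markers had a value and none was over 0.1 TPM in all pigs. Their summed level was 33.8, 9.62, 6.53, 2.45, 2.74 and 31.0 rescaled TPM in pigs 1 to 6, and 5 of the 8, such as UMOD and AQP2, were listed at 0 in at least 1 pig. The sum was high in pigs 1 and 6 but not in pig 2, where PEX11A was highest and where UMOD, at 0.401 rescaled TPM, was below its 1.13 in pig 3. PPARG, the nuclear receptor that drives fat cell formation and a regulator of peroxisomal genes, had 778, 533, 336, 274, 306 and 490 rescaled TPM. Pigs 1, 2 and 6 were the highest for both PPARG and PEX11A. The part of these transcripts in the PEX11A values was not tested.

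**Figure D2:**
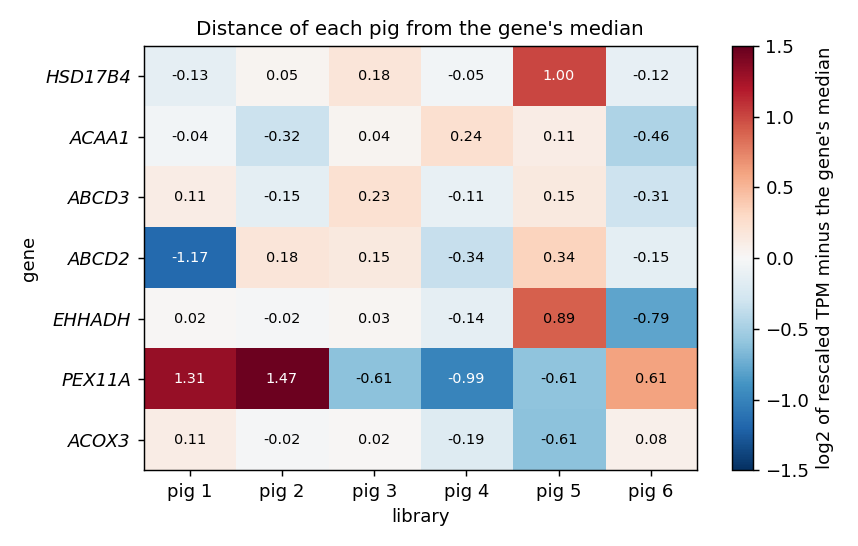
Log2 of rescaled TPM minus the median of the gene over 6 pigs, with genes in rows, pigs in columns and red for values above the median. PEX11A is 1.31 and 1.47 above its median in pigs 1 and 2, HSD17B4 is 1.00 and EHHADH 0.89 above in pig 5, and ABCD2 is 1.17 below in pig 1.

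The genes did not share a single profile over the animals. After rescaling 3 of the 7 were highest in pig 5, 3 were lowest in pig 6 and 1 was lowest in pig 4. Over all genes compared, 13.4% were highest in pig 5, 4.69% lowest in pig 6 and 22.9% lowest in pig 4. Pig 5 was the lowest for 41.2% of them, and of the 7 only for ACOX3. These distances were read beside those of the other genes with a mean of at least 10 rescaled TPM. In pig 5, HSD17B4 lay further above its median than 97.4% of genes and EHHADH than 96.7%. In pig 6, EHHADH lay further below than all but 1.03% of genes and ACAA1 than all but 2.85%. ABCD2 in pig 1 was below all but 0.339% of genes. PEX11A was above 99.5% of genes in pig 1 and 99.4% in pig 2.

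The spread between pigs was near that of other genes as a group, but differed among the 7. The median CV was 0.316 after rescaling, against 0.282 over the 8866 named nuclear genes with a mean of at least 10 rescaled TPM, and 3 of the 7 (ABCD3, ACOX3 and ACAA1, with CVs of 0.141, 0.167 and 0.178) were under that background. As deposited the medians were 0.628 and 0.680. Without pig 1 the median CV of the 7 was 0.1998, without pig 5 it was 0.193, and without pigs 4 and 5 it was 0.166, so it rests on few animals.

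**Figure D3:**
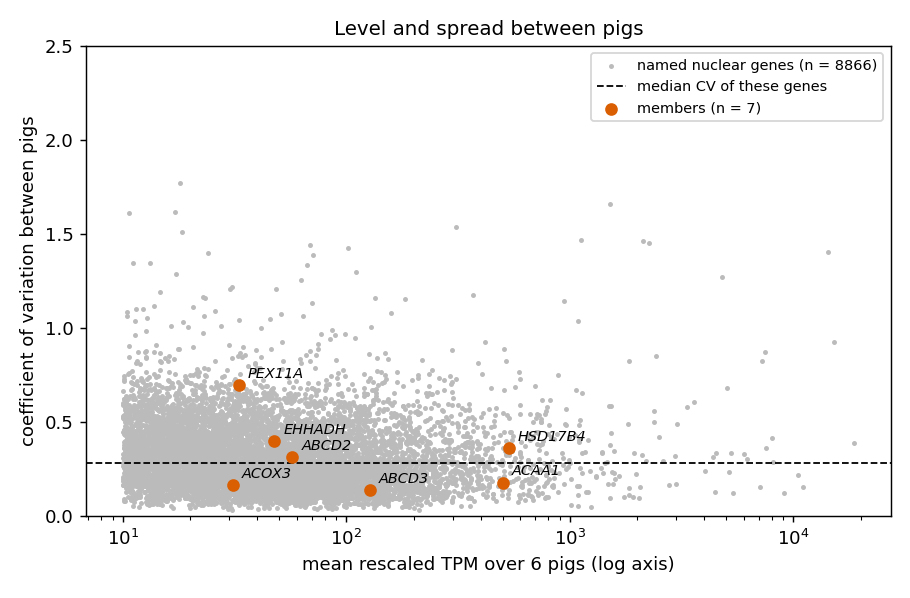
Coefficient of variation between 6 pigs against mean rescaled TPM (log axis) for 8866 named nuclear genes in grey and the 7 peroxisomal genes in orange, with the median CV of the grey genes as a dashed line. ACAA1 combines a high level with a CV of 0.178, while PEX11A lies at a CV of 0.697.

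Likeness between genes was measured within libraries, as the SD over the 6 pigs of the log2 ratio of 2 genes, which no library factor can alter. A small SD means that the ratio stayed nearly constant. Among the 7, ACAA1 and ABCD3 were most alike, with an SD of 0.21 and ACAA1 at 3.59 to 5.21 times ABCD3. Of the 8852 genes compared with ACAA1, 1.85% were closer to it than ABCD3. HSD17B4 and EHHADH followed with 0.27. From the side of EHHADH, HSD17B4 ranked 26 of 8852. PEX11A and ABCD2 were least alike, with an SD of 1.38. The median SD to ACAA1 over all genes was 0.57.

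The 5 genes closest to ACAA1 by this measure were PIGH, EIF3F, HSPA14, GMDS and BLTP3B, with SDs of 0.07, 0.08, 0.09, 0.10 and 0.11. PIGH takes part in glycosylphosphatidylinositol anchor synthesis and EIF3F is a translation initiation factor. They were picked as the smallest of 8852 SDs over 6 pigs, and the list was not stable. Without pig 2, 4 of the 5 stayed in it. Without pig 1 or pig 3, 2 stayed, without pig 5 it was 1, and without pig 4 or pig 6 it was 0. The closest gene was TMEM38A for HSD17B4, NADK for ABCD3, EMG1 for ABCD2, CARHSP1 for EHHADH, CCDC81 for PEX11A and AASDH for ACOX3, with SDs of 0.10, 0.06, 0.11, 0.16, 0.18 and 0.06.

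A few genes of related function were also looked up, and their places ranged widely. ACAA2, the mitochondrial thiolase, ranked 4 of 8852 for EHHADH with an SD of 0.20, but 94.9% of genes were closer than it to PEX11A and 86.8% to ACOX3. CAT, which removes peroxide, ranked 19 for ABCD3 with an SD of 0.12, and 71.8% of genes were closer than it to PEX11A. PPARG, at an SD of 0.57, had 4.12% of genes closer than itself to PEX11A, against 70.0% for ACAA1. PPARA, at an SD of 1.13, had 73.5% of genes closer than itself to PEX11A, against 32.4% for ACAA1 and 20.2% for ACOX3. RXRA, the partner of the PPARs, had 7.40% of genes closer than itself to ACOX3, against 45.3% for PEX11A. ALB, the hepatocyte marker, had 95.6% of genes closer than itself to EHHADH and 97.5% to HSD17B4, with SDs of 1.55 and 1.66. These ranks were looked up after the values were seen and describe these 6 libraries.

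The peroxisomal enzymes were next set beside mitochondrial enzymes of like steps, since both organelles run the same cycle on different chains. In 3 of 5 ratios the peroxisomal transcript was higher in 6 of 6 pigs, and in 2 it was lower in 6 of 6. ACAA1 was 11.5, 9.59, 10.3, 10.8, 6.31 and 12.4 times ACAA2 in pigs 1 to 6. The lowest ratio was that of pig 5, and the mean log2 ratio was 3.31 ± 0.34 (SD, n = 6), a ratio of 9.91. HSD17B4 was 4.64 to 10.1 times HADHA, the alpha subunit of the mitochondrial trifunctional protein, with a mean log2 ratio of 2.59 ± 0.40 (SD, n = 6). EHHADH was 0.329 to 0.912 times HADHA, with a mean log2 ratio of -0.93 ± 0.49 (SD, n = 6). These ratios depend on the mitochondrial gene chosen. HADHB, the thiolase subunit of the trifunctional protein, had a mean of 170 rescaled TPM, against 52.7 for ACAA2 and 502 for ACAA1. HADH, another mitochondrial dehydrogenase of the cycle, had 608, against 85.6 for HADHA and 535 for HSD17B4.

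At the first step ACOX3 was 0.467 to 0.844 times ACADVL, the mitochondrial very long-chain acyl-CoA dehydrogenase, with a mean log2 ratio of -0.55 ± 0.30 (SD, n = 6). At the entry step ABCD3 was 1.83 to 11.6 times CPT1A, the carnitine acyltransferase of the outer mitochondrial membrane, and its mean log2 ratio was 2.35 ± 0.99 (SD, n = 6). Without pigs 4 and 5 the mean ratios were 10.9 for ACAA1 to ACAA2, 5.62 for HSD17B4 to HADHA, 0.481 for EHHADH to HADHA, 0.759 for ACOX3 to ACADVL and 3.68 for ABCD3 to CPT1A. A ratio of transcripts is not a ratio of flux or protein.

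**Figure D4:**
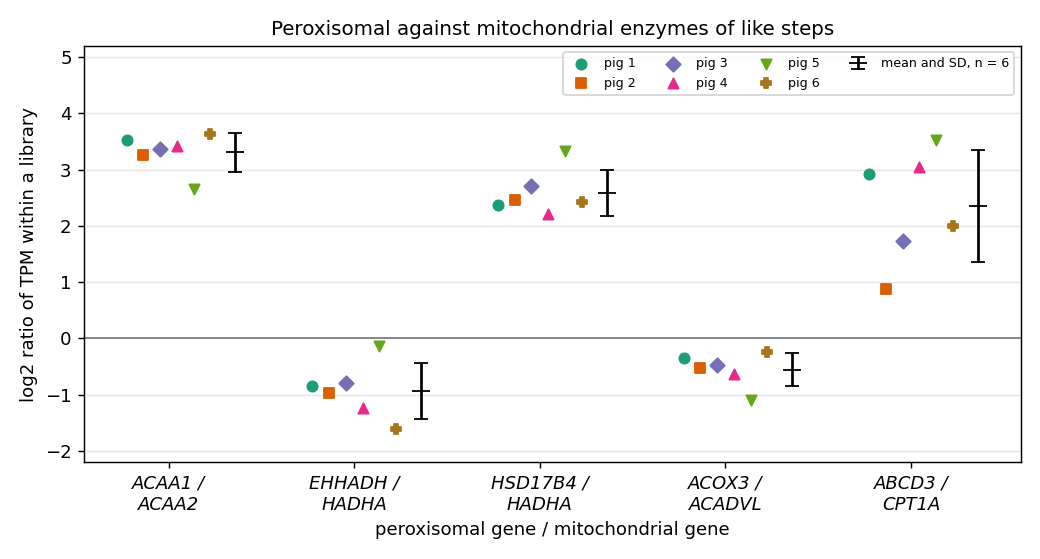
Log2 ratio of TPM within each library for 5 pairs of a peroxisomal and a mitochondrial gene, with 1 point per pig and the mean and SD (n = 6) in black beside them. The points of EHHADH to HADHA and ACOX3 to ACADVL all lie below 0, with means of -0.93 and -0.55, and those of the other 3 pairs all lie above.

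The rest of the pathway was read from lists by role. Of 20 further oxidation genes 19 had a value, with a median of 60.5 rescaled TPM. Of these, 18 were over 0.1 TPM in all 6 pigs, as were 67.2% of all named nuclear genes. A mean of at least 10 rescaled TPM was reached by 15, and by 59.7% of all named nuclear genes. SLC27A2, a very long-chain acyl-CoA synthetase abundant in liver, was the lowest at 0.573 ± 0.211 (SD, n = 6). ACOX2, the oxidase of bile acid intermediates, ranged from 22.01 in pig 5 to 136 in pig 6. CROT, which makes carnitine esters for export from the peroxisome, had 54.7 ± 12.5 rescaled TPM (SD, n = 6).

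CAT, catalase, was far more abundant than any of the 7. It had 2100, 2008, 2514, 1647, 2314 and 1778 rescaled TPM in pigs 1 to 6, a mean of 2060.3 ± 324 (SD, n = 6) at the 99.7th percentile. The lowest and highest pigs differed by 1.53 times, and PRDX5, a peroxiredoxin, was the lowest of that list at 103 rescaled TPM. Among the other peroxins 12 of 15 had a value, with a median of 22.9 rescaled TPM. PEX19, a chaperone of membrane proteins, was the highest at 138. PEX5 and PEX7, the receptors of the type 1 and type 2 signals, had 18.1 ± 6.00 and 49.8 ± 4.71 rescaled TPM (SD, n = 6). PEX7 was thus above PEX5 by its mean.

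**Figure D5:**
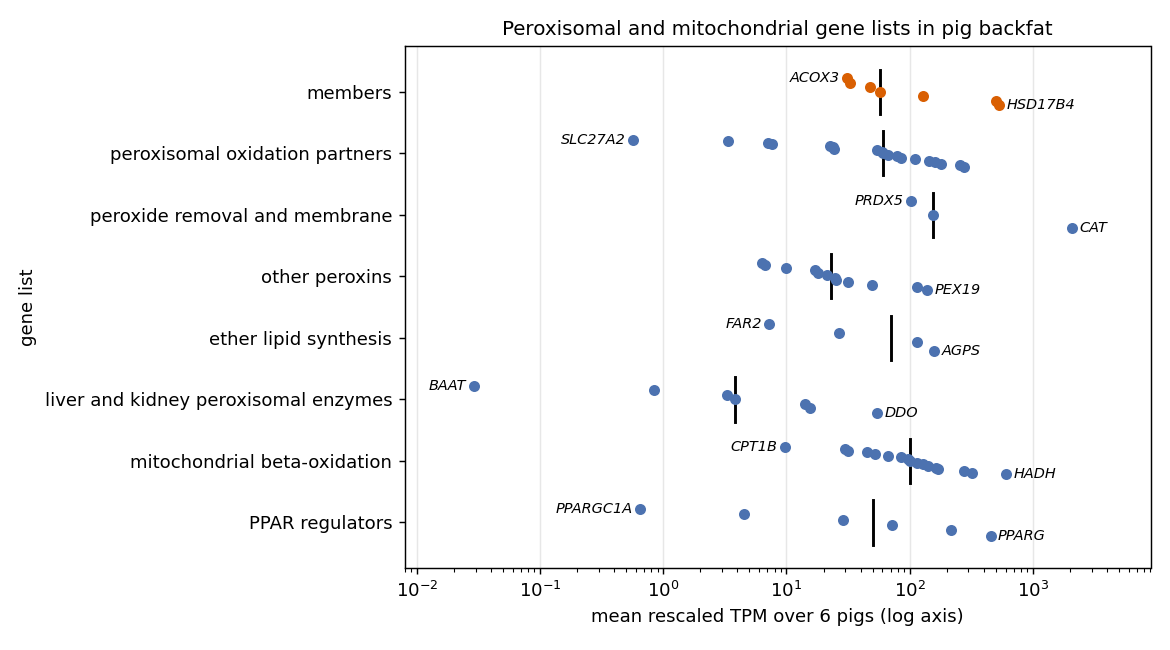
Mean rescaled TPM over 6 pigs (log axis) of each gene in 8 lists, with the median of the list as a black bar and names at the highest and lowest genes of most lists. CAT at 2060.3 lies above every other gene shown, and the liver and kidney peroxisomal enzymes have the lowest median at 3.85.

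Peroxisomal enzymes typical of liver and kidney were low. Of 8 listed, 7 had a value, with a median of 3.85 rescaled TPM. A mean of at least 10 was reached by 3, against 59.7% of all named nuclear genes. BAAT, which conjugates bile acids, was listed at 0 in 5 of 6 pigs, and DDO, an oxidase of D-aspartate, was the highest at 53.9 rescaled TPM. The 4 genes of ether lipid synthesis, a pathway that starts in the peroxisome, had a median of 70.7, from 7.25 for FAR2 to 157 for AGPS. The 17 mitochondrial beta-oxidation genes with a value had a median of 101 rescaled TPM, from CPT1B at 9.69 to HADH at 608. Among regulators PPARG had the highest mean at 453 rescaled TPM, PPARA had 72.4 ± 14.6 (SD, n = 6) and PPARGC1A had the lowest at 0.653.

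The tissue label was checked by its markers. The 9 adipocyte markers with a value had a median of 990.0 rescaled TPM, from 399 for PNPLA2 to 18679 for FABP4, and their sum ran from 21074 to 37097 over the pigs. Sums ran from 447 to 988 for macrophages, 667 to 1447 for endothelium, 625 to 1221 for smooth muscle and 9617 to 28353 for stromal cells. They ran from 20.3 to 47.1 for lymphoid cells, 1.75 to 12.8 for skeletal muscle and 114 to 966 for red blood cells. The macrophage and skeletal muscle sums were lowest in pig 5, and the endothelial, smooth muscle, stromal and lymphoid sums in pig 4. The red blood cell sum was highest in pig 4, as were HBB and ALAS2, while SLC4A1 had 2.12 rescaled TPM there and 9.40 in pig 2. The adipocyte sum was highest in pig 5, where FABP4 made up most of it at 28926 rescaled TPM. Most other adipocyte markers went the other way. Of the 9, 7 were lowest in pig 4 or 5 and 1 was highest in pig 5. The median adipocyte marker was lowest in pig 5, at 856 rescaled TPM against 1046 to 1519 in the other pigs. The part of cell composition in the peroxisomal levels was not tested.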

How the data were processed

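Total RNA of each tissue was depleted of rRNA, made into stranded libraries and sequenced as paired ends. The authors estimated gene-level TPM with kallisto 0.43.0 against Sscrofa11.1, and the deposited table holds those TPM, which sum to 1000000 in each library. Symbols were joined by gene ID. TPM as deposited and TPM rescaled over 14844 named nuclear genes (the 13 mitochondrially encoded genes left out) were both described. Means, SDs, CVs, percentiles and log2 ratios within libraries were computed with pandas 2.3.3, after the functions were tested on simulated data. There is 1 group, so no test between groups was run and no p-value is given. Single pigs far from the rest were marked by Dixon's criterion. Loci and sequences came from RefSeq on the same build. Some genes of this rule are not reported here. The genes and lists were chosen with earlier results of these data known. Named are the 8 genes, the highest and lowest of each list, genes fixed by role, the genes of 5 ratios, and the closest genes by log2 ratio (5 for ACAA1, 1 for each other). Other listed genes are named where a comparison used them.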

Additional observations from a re-analysis of the deposited data

Results flagged for a closer look

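In 6 of 45 sets of 6 pig values examined, 1 pig lay far from the rest, by a gap to its nearest neighbour above the 95% limit of Dixon's test, which chance alone gives in about 1 in 20 sets. HSD17B4 was set apart by pig 5 at 921 rescaled TPM, where the gap was 0.798 of the range, and EHHADH by the same pig at 83.1 rescaled TPM, where it was 0.653. Both gaps passed the limit under the other 4 scalings as well, with 0.756 to 0.842 of the range for HSD17B4 and 0.635 to 0.675 for EHHADH, and neither did as deposited. The ratio of HSD17B4 to HADHA, which no scaling by library can alter, was also set apart by pig 5, at 10.1 against 4.64 to 6.54 in the others. It reuses the HSD17B4 values and so is not an independent set. ACADVL was lowest in pig 6 at 41.0 rescaled TPM, against 44.5 to 46.5 elsewhere. BAAT had 0.174 rescaled TPM in pig 6 and was listed at 0 in the others. Its value as deposited was 0.0457 TPM, under the 0.1 TPM limit, and any value above 0 would have been marked. PEX7 was highest in pig 4 at 58.9 rescaled TPM, against 45.7 to 49.4 elsewhere.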

How the results depend on the processing

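No paired analysis was possible because the results come from no test and from 1 group of animals. Leaving out pigs 4 and 5 together was chosen after seeing the data. Under the alternatives run for them, 5 to 7 genes were detected, 14 to 16 pairs kept their order, and none of the 5 organelle ratios changed sign. These runs could not lower the number of pairs or turn a ratio, because each keeps the order of 2 genes within a library. For detection, only the threshold of 1 TPM could lower the number. The stability of these results is therefore by construction. The median CV moved to 0.628 for TPM as deposited and ranged from 0.193 to 0.351 when a pig was left out. The median percentile moved to 72.3 among genes of at least 1 rescaled TPM, since fewer low genes are counted, and ranged from 75.2 to 79.7 when a pig was left out. Of the 5 genes closest to ACAA1, 0 to 4 stayed when a pig was left out. The means of rescaled TPM were 1.46 to 1.57 times higher when the top 1% of genes was left out of the rescaling, by construction, and 0.812 to 1.13 times the reported value when a pig was left out. Which of the 7 had the highest and lowest CV, and which pig was lowest for ACOX3, also depended on the scaling, with the values given above. The depth is unknown, so no counting error can be given for low genes such as ACOX3 and PEX11A in pigs 4 and 5.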
